A study of Mus musculus with 8 samples.

Results

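Guanine deaminase (Gda) and 9 other enzymes of purine salvage were followed in haematopoietic stem cells (HSCs) of newborn and young mice. The 10 genes are Gda, Xdh, Pnp, Ada, Adk, Hprt, Aprt, Nt5e, Nt5c2 and Ampd3, of 22050 genes with an mRNA model in the deposited tables. They were chosen by name, and the choice was made with the exon reads of these libraries known, in which Gda stood out. The levels of the 10 genes and their differences between the ages are therefore given as a description, with no p-value. All 10 genes passed the filter on low counts that left 12235 genes for testing.

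The study compared the messenger RNA of HSCs from bone marrow of C57BL/6 mice at postnatal day 5 (P5) and at 4 weeks of age, with 4 libraries at each age. Each library was made from 100 cells sorted as CD150+ CD48- EPCR+ Lineage-, and both ages share this gate and strain, with no treatment or engineered allele named. The labels do not give the sex of the animals or say that libraries came from separate mice, so the spread between libraries may in part be technical. The series' description also mentions HSCs kept in culture for a day, but no sample label names a culture.

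The libraries held between 5775130 and 7470777 exon reads, and over genes with an mRNA model intron reads made up 60.12% of gene reads in P5 replicate 1 and 66.78% to 68.66% in the other 7 libraries. Of the 12235 genes tested, 2023 differed between the ages at an adjusted p under 0.05, which is 16.5% of them. Summed markers of HSCs reached 4478 to 4850 CPM (edgeR's scaled unit, exon reads per 1000000 of the effective library size) at P5 and 3995 to 4493 CPM at 4 weeks. Cd48, the protein of which the gate excludes, stayed between 1.71 and 10.02 CPM in all 8 libraries. Summed erythroid markers were higher at P5, at 581.6 to 909.4 CPM against 88.4 to 195.5 CPM, at P5 nearly all of it from the beta-globin gene Hbb-bt. Summed endothelial markers were 301.3 to 388.9 CPM at P5 and 230.7 to 294.5 CPM at 4 weeks. B cell markers summed to 34.1 to 51.7 CPM at P5 and 20.9 to 26.1 CPM at 4 weeks, with Pax5 at 0 reads in every library. Nearly all of this sum came from Cd79b, at 31.9 to 50.9 CPM at P5 and 20.3 to 23.9 CPM at 4 weeks. T and NK cell markers summed to 12.8 to 18.3 CPM at P5 and 17.4 to 27.8 CPM at 4 weeks, with Cd3e, Cd3g and Il2rb at 0 reads. Lck, the most abundant of them, overlapped between the ages, at 10.6 to 16.9 and 9.84 to 16.0 CPM. Nkg7 did not overlap, at 1.40 to 3.24 CPM at P5 and 5.53 to 11.7 CPM at 4 weeks. Granulocyte and monocyte markers summed to 183.4 to 391.7 CPM at P5 and 177.5 to 203.2 CPM at 4 weeks. Lyz2 was the most abundant of them, and Csf1r ranged from 3.53 to 158.1 CPM among P5 libraries. Stromal markers summed to 12.6 to 32.3 CPM at P5 and 12.4 to 83.7 CPM at 4 weeks, where Cxcl12 ranged from 0.337 to 50.4 CPM. P5 replicates 1 and 3 held 2 and 0 reads of 4 Y-linked genes, while the other 6 libraries held 1532 to 2293. In such bulk libraries, fewer cells of a type and less RNA per cell cannot be told apart.

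Cells obtain purine nucleotides either by building them step by step on phosphoribosyl pyrophosphate, the de novo route, or by salvaging bases and nucleosides freed when nucleic acids and nucleotides break down. At the centre of salvage, purine nucleoside phosphorylase frees hypoxanthine and guanine from nucleosides, and a phosphoribosyltransferase turns these bases back into nucleotides. Guanine deaminase takes guanine out of this cycle by converting it to xanthine, which xanthine dehydrogenase oxidises to uric acid. Loss of adenosine deaminase or of the phosphorylase is known in humans for its harm to lymphocytes.

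Gda, which removes the amino group of guanine, had the lowest levels per length of the 10 genes in P5 HSCs, beside Nt5e. At P5 it reached 4.23, 4.97, 5.50 and 7.47 CPM in replicates 1 to 4, from 31, 32, 34 and 53 exon reads. At 4 weeks it reached 88.6, 73.6, 103.7 and 68.7 CPM, from 561, 427, 616 and 496 exon reads. The 2 ages did not overlap, and the lowest library at 4 weeks lay far above the highest at P5. The means were 5.54 ± 1.39 CPM at P5 and 83.7 ± 15.8 CPM at 4 weeks (SD, n = 4 each), a log2 fold change of -3.91 (SE 0.191). Gda was thus 15.03-fold lower at P5 in the fitted model. All of its exon reads mapped uniquely.

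**Figure D1:**
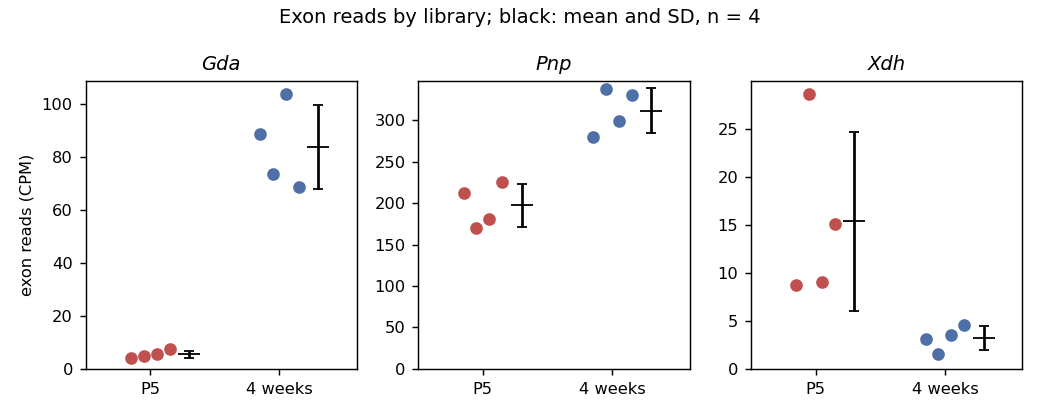
Exon reads of Gda, Pnp and Xdh in CPM (vertical axes, which start at 0 and differ between panels), with 1 point per library at P5 (red) and 4 weeks (blue) and the mean and SD of 4 libraries in black. Gda lies between 4.23 and 7.47 CPM at P5 and between 68.7 and 103.7 CPM at 4 weeks, and the ages do not overlap in any of the 3 panels.

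Reads within introns, which come from unspliced RNA or from other intronic sources, also differed for Gda. At P5 its introns held 192, 41, 197 and 153 reads, and at 4 weeks 1597, 1180, 1562 and 1676 reads. On the scale of intron CPM, Gda was at 11.6 ± 6.45 CPM at P5 and 111.3 ± 14.5 CPM at 4 weeks (SD, n = 4 each), a log2 fold change of -3.27 (SE 0.368), without overlap. P5 replicate 2 stood low for introns, at 1.28 intron reads per exon read, against 2.89 to 6.19 in the other 3 P5 libraries and 2.54 to 3.38 at 4 weeks. Reads that cross an exon junction, the mark of spliced RNA, numbered 4, 8, 7 and 12 at P5 and 93, 81, 131 and 98 at 4 weeks. As a share of exon reads this was 20.7% at P5 (31 of 150) and 19.2% at 4 weeks (403 of 2100).

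Gda lies on chromosome 19 at 21391307 to 21472661 of GRCm38.p6, on the minus strand, and its gene model in the files has 16 exons and 5417 exon bases. Pnp lies on chromosome 14 at 50944303 to 50953412 on the plus strand, with 6 exons and 2941 exon bases. These were the members with lower levels at P5 whose ages did not overlap, so the 250 bases before the start of each are shown, from RefSeq on GRCm38.p6. The Gda window is chr19:21472662-21472911 on the minus strand and the Pnp window is chr14:50944053-50944302 on the plus strand, both written 5′ to 3′ along the gene. Capitals mark matches, on either strand, to any of 5 motifs, which were picked with the results known.
Gda: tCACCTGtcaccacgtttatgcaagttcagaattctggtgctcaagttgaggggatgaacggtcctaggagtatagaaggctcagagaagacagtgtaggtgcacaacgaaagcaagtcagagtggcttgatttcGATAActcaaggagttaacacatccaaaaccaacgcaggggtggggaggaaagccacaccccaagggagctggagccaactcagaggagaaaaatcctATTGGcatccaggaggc
Pnp: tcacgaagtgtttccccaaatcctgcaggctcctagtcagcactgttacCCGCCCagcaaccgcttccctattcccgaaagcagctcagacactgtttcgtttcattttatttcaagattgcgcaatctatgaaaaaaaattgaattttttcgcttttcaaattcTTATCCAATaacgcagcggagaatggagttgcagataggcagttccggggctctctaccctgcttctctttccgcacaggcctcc

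The motifs searched were GATAA (the core bound by GATA factors), CCAAT (the CCAAT box), CANNTG (the E-box), GGGCGG (the GC box) and TATAAA (the TATA box). The Gda window held GATAA from -115 to -111, counted from the base before the start site as -1. It also held CCAAT on the opposite strand from -17 to -13 and an E-box from -249 to -244. The Pnp window held GATAA on the opposite strand from -85 to -81 and CCAAT from -81 to -77, which share 1 base, and a GC box on the opposite strand from -201 to -196. Neither window held TATAAA. Of 32851 windows of the same length in the table, 22.6% held GATAA and 33.9% held CCAAT, so a match to either is common. E-boxes were in 66.2% of windows, GC boxes in 32.7% and TATAAA in 12.4%. The GC content was 50% for Gda and 46.8% for Pnp, beside a median of 52.4% over all windows.

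Xdh, xanthine dehydrogenase, acts on the product of Gda and needs a molybdenum cofactor. It went the other way from Gda. At P5 it was at 8.73, 28.6, 9.05 and 15.1 CPM in replicates 1 to 4, from 64, 184, 56 and 107 exon reads. At 4 weeks it was at 3.16, 1.55, 3.53 and 4.57 CPM, from 20, 9, 21 and 33 exon reads. The ages did not overlap, but the P5 libraries were spread widely, and replicate 2 stood highest. The means were 15.4 ± 9.30 CPM at P5 and 3.204 ± 1.25 CPM at 4 weeks (SD, n = 4 each), a log2 fold change of 2.24 (SE 0.415) and 4.72-fold higher at P5. Without P5 replicate 2 the log2 fold change was 1.76.

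The 2 P5 libraries without Y-linked reads beyond a few were the 2 with the least Xdh. Among the 6 libraries with such reads the log2 fold change of Xdh was 2.74, and that of Gda -3.73. Intron reads of Xdh were few, at 15, 98, 27 and 57 at P5 and 35, 4, 19 and 13 at 4 weeks, and they overlapped between the ages. Xdh is also transcribed in endothelial cells, whose summed markers were higher at P5. Of those markers, Cdh5 was at 5.73 to 19.4 CPM at P5 and at 0 to 0.168 CPM at 4 weeks, and Tek at 134.8 to 163.0 and 84.9 to 110.7 CPM. Pecam1, the most abundant, overlapped between the ages, as did Emcn, Kdr and Plvap. Plvap was at most 2.05 CPM in any library. The part of endothelial RNA in the Xdh result was not tested. Xdh lies on chromosome 17 at 73883895 to 73950397, minus strand.

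Pnp, purine nucleoside phosphorylase, splits inosine and guanosine into base and ribose phosphate, and was the most abundant of the 10 per length at both ages. Its exon reads came to 212.8, 169.7, 181.5 and 225.5 CPM at P5 and to 279.4, 337.4, 298.8 and 330.9 CPM at 4 weeks. Every P5 library lay below every library at 4 weeks. The means were 197.4 ± 26.1 and 311.6 ± 27.3 CPM (SD, n = 4 each), a log2 fold change of -0.66 (SE 0.0998) and 1.58-fold lower at P5.

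Pnp introns held few reads, 6.99% of its gene reads, at 8.65 ± 0.488 CPM at P5 and 10.2 ± 0.599 CPM at 4 weeks (SD, n = 4 each). These too did not overlap, with a log2 fold change of -0.23 (SE 0.174). Pnp has a near copy beside it, Pnp2, with 515 exon reads against 13266 for Pnp, and 78.2% of Pnp exon reads mapped uniquely. With unique reads alone the log2 fold change was -0.64. Pnp2 was at 11.4 ± 3.82 CPM at P5 and 8.20 ± 4.10 CPM at 4 weeks and did not pass the test, and how reads were shared between the copies was not tested. The annotation (GENCODE M21) also has Gm49342 on the same strand, which shares 718 exon bases with Pnp, and its reads could not be told apart from those of Pnp.

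The 2 enzymes that act on adenosine were nearly level between the ages. Ada, which deaminates adenosine to inosine, was at 29.99, 26.3, 28.9 and 33.4 CPM at P5 and at 32.7, 33.4, 26.9 and 33.7 CPM at 4 weeks, with a log2 fold change of -0.10 (SE 0.128). Adk, which phosphorylates adenosine to AMP, was at 58.1, 39.3, 38.6 and 44.7 CPM at P5 and at 36.7, 54.5, 46.6 and 47.5 CPM at 4 weeks, with a log2 fold change of -0.03 (SE 0.155). In both genes the ages overlapped. The sign of the Adk difference turned positive, to 0.07, without 4-week replicate 2, and to 0.01 with unique reads.

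Adk stood out among the 10 for its introns, which held 95.4% of its gene reads. Its gene spans 395996 bases of chromosome 14, from 21052574 to 21448569, the longest span of the 10. Intron reads of Adk were at 505.2 ± 53.8 CPM at P5 and 435.7 ± 23.1 CPM at 4 weeks (SD, n = 4 each), overlapping, with a log2 fold change of 0.21 (SE 0.0894). Ada, on chromosome 2 from 163726571 to 163750239, had the largest share of junction reads, 51.7% of its exon reads.

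The phosphoribosyltransferases return bases to nucleotides, Hprt from hypoxanthine and guanine and Aprt from adenine. Hprt was at 66.5, 67.0, 64.5 and 59.5 CPM at P5 and at 72.1, 86.0, 68.5 and 62.3 CPM at 4 weeks, with a log2 fold change of -0.16 (SE 0.109). Aprt was at 44.7, 34.4, 37.5 and 28.3 CPM at P5 and at 30.7, 36.5, 27.4 and 33.7 CPM at 4 weeks, with a log2 fold change of 0.18 (SE 0.151). The ages overlapped in both. The Aprt value turned to -0.034 with Y-linked reads as a covariate and in the libraries with such reads, and to -0.32 in intron reads. Hprt varied least of the 10 genes among the P5 libraries, with a coefficient of variation of 5.32%. Hprt lies on chromosome X at 52988078 to 53021660.

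Nt5c2 and Nt5e remove the phosphate from nucleoside monophosphates, Nt5c2 inside the cell with a preference for IMP and GMP and Nt5e (CD73) on the cell surface, where it makes adenosine from AMP. Nt5c2 was at 108.4, 132.9, 143.8 and 138.6 CPM at P5 and at 144.1, 127.4, 154.3 and 144.2 CPM at 4 weeks, with a log2 fold change of -0.12 (SE 0.0976). Nt5e was at 1.09, 5.29, 5.33 and 4.23 CPM at P5, from 8, 34, 33 and 30 exon reads. At 4 weeks Nt5e was at 4.58, 4.14, 2.69 and 6.65 CPM, from 29, 24, 16 and 48 exon reads. Both genes overlapped between the ages. The Nt5e log2 fold change was -0.20 (SE 0.453), and 0.12 without P5 replicate 1.

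Nt5e had no junction read at all, 0 of 222 exon reads over the 8 libraries, although its gene model has 9 exons. A count of 0 was found in 433 of the 12235 tested genes, or 3.54%. Among 703 tested genes with at least 5 exons and 150 to 300 exon reads, 36 had none, or 5.12%, and the median share was 14.3%. Whether the Nt5e reads came from spliced RNA was not tested.

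Ampd3, the form of AMP deaminase known from red cells, converts AMP to IMP. It was at 19.4, 25.3, 17.3 and 13.8 CPM at P5 and at 12.3, 12.6, 16.5 and 13.3 CPM at 4 weeks. The ages overlapped, with a log2 fold change of 0.47 (SE 0.199) in exon reads and 0.15 (SE 0.198) in intron reads. Its exons overlap another gene: 195 bases are shared with Rnf141 on the opposite strand, which had 3237 exon reads against 855 for Ampd3. The library kit does not mark strand, so reads from those bases could not be assigned to either gene. Of the erythroid markers, Hbb-bt was higher at P5, at 570.7 to 900.7 CPM against 83.1 to 128.0 CPM. Car1 had 0 reads in each of the P5 libraries. At 4 weeks it was uneven between libraries, from 0 to 50.3 CPM, with 301 exon reads over all 8 libraries. The part of erythroid RNA in the Ampd3 value was not tested.

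Of the 10 genes, 1 was past the adjusted threshold as higher at P5 (Xdh) and 2 as lower (Gda and Pnp), and these 3 were also the ones whose ages did not overlap. Over all genes tested, 7.99% were higher at P5, 8.55% were lower and 21.2% did not overlap between the ages in either direction. Since the genes were chosen with this contrast known, nothing is read from their count. The median log2 fold change was -0.11 over the 10 genes and -0.0042 over all genes tested. Ampd3, at 0.47, and Nt5e, at -0.20, bounded the 7 genes that were not past the threshold.

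**Figure D2:**
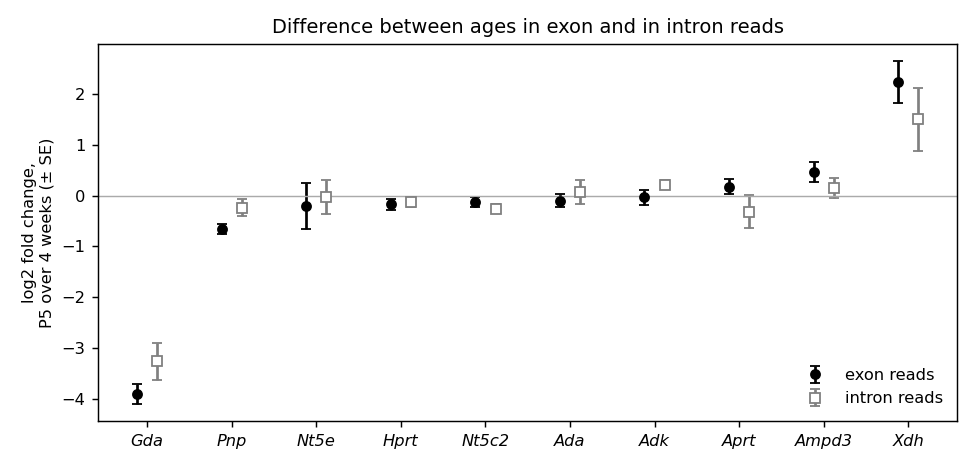
Log2 fold change of P5 over 4 weeks for each of the 10 genes (vertical axis), from exon reads (black circles) and intron reads (open squares), with bars of 1 SE from the edgeR fit. Gda is at -3.91 in exons and -3.27 in introns and Xdh at 2.24 and 1.504, while the other 8 lie between -0.66 and 0.47.

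On the scale of CPM per kb of exon, the order of the 10 genes at P5 was Pnp at 67.1, Hprt at 47.7, Aprt at 41.8, Adk at 20.5, Nt5c2 at 19.9, Ada at 17.4, Ampd3 at 3.58, Xdh at 3.33, Nt5e at 1.11 and Gda at 1.02. Neighbours whose libraries overlapped were Hprt and Aprt, Adk and Nt5c2, Nt5c2 and Ada, Ampd3 and Xdh, and Nt5e and Gda. At 4 weeks the order was Pnp at 106.0, Hprt at 53.5, Aprt at 37.0, Nt5c2 at 21.6, Adk at 21.0, Ada at 18.6, Gda at 15.4, Ampd3 at 2.58, Nt5e at 1.26 and Xdh at 0.694. There the overlapping neighbours were Nt5c2 and Adk, Adk and Ada, Ada and Gda, and Nt5e and Xdh. Gda thus moved from rank 10 at P5 to rank 7 at 4 weeks, level with the adenosine enzymes, and Xdh from rank 8 to rank 10.

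Guanine can go to Hprt, which salvages it, or to Gda, which removes it. The ratio of Gda to Hprt per kb was 0.0217 ± 0.00675 at P5 and 0.293 ± 0.0682 at 4 weeks, each a mean and SD over 4 libraries. The ratio of Gda to Xdh per kb was 0.375 ± 0.158 at P5 and 25.5 ± 11.4 at 4 weeks. Gda transcript was therefore below Xdh in each P5 library and above it in each library at 4 weeks, with ratios of 0.148 to 0.517 and of 12.8 to 40.4. The ratio of Pnp to Hprt was 1.42 ± 0.249 at P5 against 2.00 ± 0.305 at 4 weeks. These ratios are of RNA and not of enzyme activity.

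**Figure D3:**
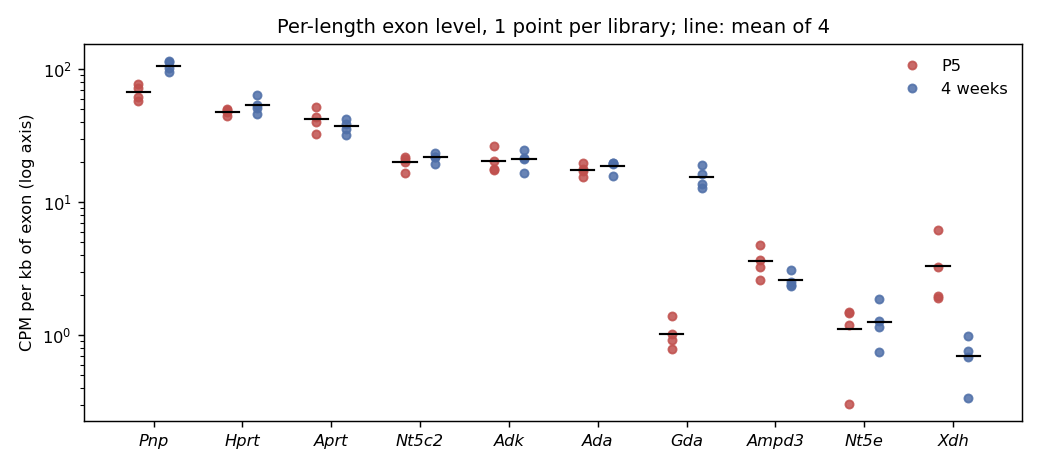
Exon level per length (CPM per kb of exon, log axis) of the 10 genes, ordered by the mean at 4 weeks, with 1 point per library at P5 (red) and 4 weeks (blue) and a line at each mean. Gda stands beside Ada at 4 weeks, at 15.4 and 18.6, and beside Nt5e at P5, at 1.02 and 1.11.

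Introns and junctions set the 10 genes apart from each other. Intron reads were 80.4% of gene reads for Nt5c2, 74.6% for Gda, 72.1% for Ampd3, 70.6% for Hprt, 59.6% for Nt5e, 55.1% for Ada, 35.2% for Xdh and 9.71% for Aprt. Junction reads were 42.0% of exon reads for Hprt, 36.7% for Adk, 34.2% for Ampd3, 29.4% for Xdh, 28.7% for Aprt, 25.0% for Nt5c2 and 24.9% for Pnp. Gda, at 19.3%, was close to the median of 18.9% over all genes tested. Both shares depend on the length and number of introns and exons, so they do not rank the genes by splicing.

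**Figure D4:**
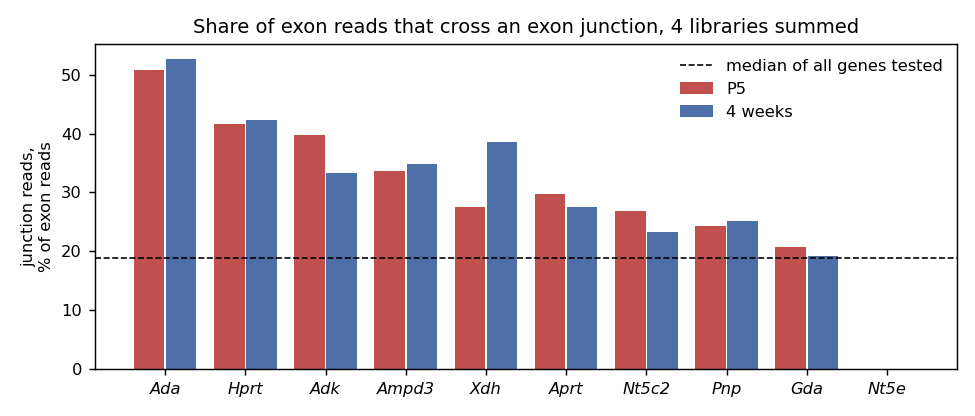
Reads that cross an exon junction as a percent of exon reads (vertical axis, from 0), 4 libraries summed at P5 (red) and at 4 weeks (blue), with the median of all 12235 genes tested as a dashed line. Ada has the highest share, Gda is at 20.7% and 19.2%, and Nt5e has no junction read at either age.

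The genes most like Gda over the 8 libraries, by Pearson's r of log2 CPM among 10712 genes, were Irf2bp2 (r = 0.997), Prkce (0.996), Spn (0.994), Lonrf3 (0.994) and Lat (0.994). Irf2bp2 is a partner of the transcription factor IRF2, Prkce a protein kinase C, Spn the surface glycoprotein CD43 and Lat an adaptor of T cell receptor signalling. Each was lower at P5, with log2 fold changes of -0.59, -0.69, -0.73, -1.02 and -0.92 in that order, much smaller than that of Gda. All share the same libraries and the gap between the ages, and 437 genes had an r above 0.9. Pnp had an r of 0.911 with Gda, at rank 369, Xdh one of -0.85 and Ampd3 one of -0.69. Ada, Adk, Hprt, Nt5e, Nt5c2 and Aprt lay between -0.49 and 0.51.

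The wider purine pathway was covered by 93 further genes in 8 lists, grouped by function. Of these, 92 were measured, all but Prtfdc1, which has no mRNA model. Of the 93, 7 had no read counted in any library, Prtfdc1 included, and 72 were tested. By edgeR's quasi-likelihood test with Benjamini-Hochberg adjustment over all genes, 3 were higher at P5, 7 were lower at P5, and 62 did not pass. That is 13.9% called, beside 16.5% of all genes tested, and the median log2 fold change was -0.016 against -0.0042 for all genes. Over all genes tested, 7.99% were higher at P5 and 8.55% lower, and the counts of each list below stand beside these shares. The count of higher genes was 0 with Y-linked reads as a covariate and 1 without P5 replicate 1, and the count of lower genes was 4 without P5 replicate 3. With that covariate, Ak4, Enpp1, Gphn and Abcg2 kept their calls (adjusted p of 0.00757 to 0.0310), and the other 6 called genes lost theirs.

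**Figure D5:**
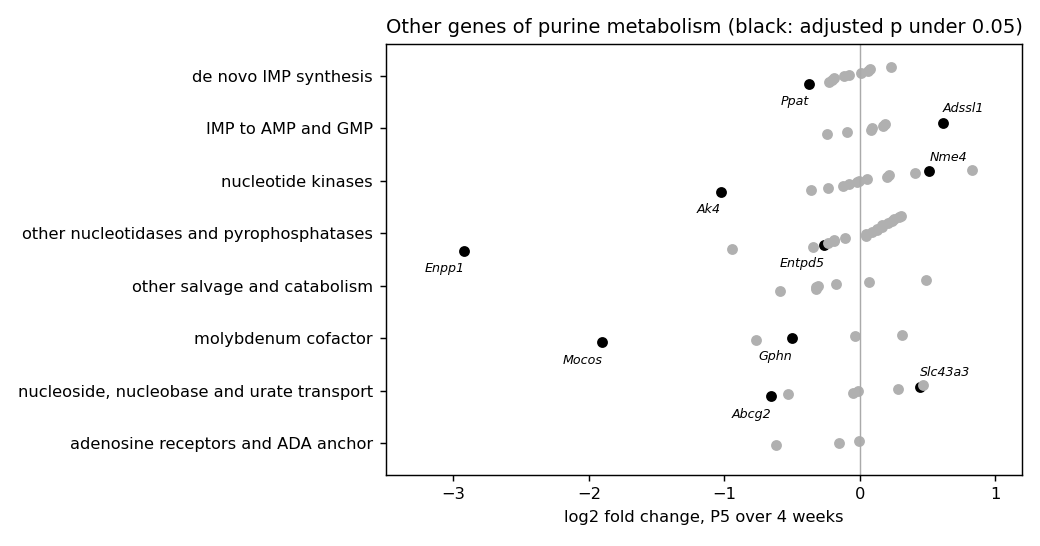
Log2 fold change of P5 over 4 weeks (horizontal axis) of the 72 tested genes in the 8 wider lists, 1 point per gene, black and named where the adjusted p was under 0.05. Most points lie near 0, with Enpp1 at -2.92 and Mocos at -1.90 farthest from it.

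Of the 10 tested genes of the de novo route to IMP, 1 was lower at P5 and none was higher. Ppat, which catalyses the first committed step, was at 73.3 ± 8.40 CPM at P5 and 95.2 ± 10.1 CPM at 4 weeks (SD, n = 4 each), a log2 difference of -0.38 (SE 0.108, adjusted p = 0.0301). This call was lost without P5 replicate 2 or 3 or 4-week replicate 2 or 4, with adjusted p-values of 0.0584 to 0.0999. Paics, the list's most abundant gene per length, was at 289.7 ± 48.3 and 247.5 ± 37.7 CPM (SD, n = 4 each), a log2 fold change of 0.23 that did not pass.

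From IMP onward, 1 of 7 tested genes was higher at P5 and none was lower. Adssl1, an adenylosuccinate synthase, was at 46.9 ± 7.73 CPM at P5 and 30.7 ± 7.67 CPM at 4 weeks (SD, n = 4 each). It was higher at P5 by 0.61 on the log2 scale (SE 0.176, adjusted p = 0.0307). Without P5 replicate 1, or 4-week replicate 2, 3 or 4, its adjusted p was 0.0538 to 0.0919. The call was also lost in intron reads, where Adssl1 differed by 0.17 (adjusted p = 0.571), and with exon and intron reads together (0.43, adjusted p = 0.0605). Impdh2, the entry to GMP synthesis and the list's most abundant gene per length, had a log2 fold change of 0.17 and did not pass.

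Among 13 tested nucleotide kinases, 1 was higher at P5 and 1 was lower. Ak4, a mitochondrial adenylate kinase, was at 16.5, 19.6, 19.6 and 17.3 CPM at P5 and at 44.7, 31.5, 29.95 and 42.1 CPM at 4 weeks, without overlap. Its log2 fold change was -1.03 (SE 0.157, adjusted p = 0.000612), and the call held with each library left out in turn. In intron reads Ak4 differed by only -0.17, and there the call was lost (adjusted p = 0.713). It was also lost with exon and intron reads together (-0.53, adjusted p = 0.0638).

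Nme4, a mitochondrial nucleoside diphosphate kinase, was at 53.0, 51.5, 52.5 and 54.6 CPM at P5 and at 29.1, 42.4, 36.4 and 40.5 CPM at 4 weeks. It was higher at P5 by 0.51 on the log2 scale (SE 0.125, adjusted p = 0.0122). Its adjusted p was 0.0538 with Y-linked reads as a covariate and 0.811 in intron reads. Nme2, the most abundant kinase per length, did not pass, with a log2 fold change of 0.41 (adjusted p = 0.0595).

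Of 20 other nucleotidases and pyrophosphatases tested, 2 were lower at P5 and none was higher. Enpp1 splits nucleoside triphosphates outside the cell into monophosphate and pyrophosphate. It had 0, 3, 11 and 3 exon reads at P5 and 28, 34, 39 and 23 at 4 weeks, or 0.667 ± 0.770 and 5.01 ± 1.51 CPM (SD, n = 4 each), without overlap. The log2 fold change was -2.92 (SE 0.645, adjusted p = 0.00698), and -4.02 without P5 replicate 3, which held most of the P5 reads. In intron reads it was -1.59 (adjusted p = 0.0109).

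Entpd5, a nucleoside diphosphatase of the endoplasmic reticulum, was lower at P5 by 0.26 on the log2 scale (SE 0.0762, adjusted p = 0.0314). Its call was lost with 6 of the 8 libraries left out in turn, namely P5 replicates 1, 2 and 3 and 4-week replicates 1, 2 and 3, at adjusted p-values of 0.0516 to 0.0817, and in intron reads (adjusted p = 0.256). Samhd1, which hydrolyses deoxynucleoside triphosphates and was the list's most abundant gene per length, had a log2 fold change of 0.24 and did not pass.

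None of the 7 tested genes of other salvage and catabolism passed the edgeR test at an adjusted p under 0.05, and 3 had an unadjusted p under 0.05. Ampd2, the AMP deaminase of many tissues and the most abundant of the list per length, was at 308.9 ± 14.6 CPM at P5 and 349.9 ± 12.9 CPM at 4 weeks (SD, n = 4 each), a log2 fold change of -0.18 (adjusted p = 0.0927). Uox, the urate oxidase that mice use to break down uric acid, had 2 exon reads in all, and Urah, Urad and Allc, which act after it, had none. Of the aldehyde oxidases, relatives of Xdh with the same cofactor, Aox1, Aox3 and Aox4 had 1, 0 and 19 exon reads over the 8 libraries.

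Of the 5 genes that make or modify the molybdenum cofactor on which Xdh depends, 2 were lower at P5 and none was higher. Over all genes tested, 8.55% were lower at P5 and 7.99% were higher. Mocos, which adds the sulphur that Xdh and the aldehyde oxidases need, had 7, 9, 3 and 10 exon reads at P5 and 41, 11, 29 and 21 at 4 weeks. Its means were 1.06 ± 0.439 and 4.04 ± 2.04 CPM (SD, n = 4 each), a log2 difference of -1.90 (SE 0.498, adjusted p = 0.0184). That call was lost without P5 replicate 3 or 4-week replicate 1 or 3 (adjusted p of 0.0511 to 0.0782) and in intron reads (-1.05, adjusted p = 0.125). Mocos differed in the direction opposite to Xdh, and a link between these 2 genes was not tested.

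Gphn, gephyrin, which inserts molybdenum and also anchors inhibitory receptors in neurons, was at 47.3, 39.3, 51.9 and 51.5 CPM at P5 and at 63.8, 75.7, 67.3 and 62.6 CPM at 4 weeks. The log2 fold change was -0.50 (SE 0.115, adjusted p = 0.00842) in exon reads. It turned to 0.26 in intron reads and to 0.15 with exon and intron reads together, neither of which passed (adjusted p = 0.400 and 0.574). Mocs1, the most abundant of the list per length, had a log2 fold change of -0.04 and did not pass.

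Among the 7 tested transporters of nucleosides, nucleobases and urate, 1 was higher at P5 and 1 was lower. Slc43a3, a carrier of purine nucleobases, was at 93.7, 80.7, 84.5 and 114.2 CPM at P5 and at 57.4, 78.6, 75.1 and 63.4 CPM at 4 weeks. It was higher at P5 by 0.45 on the log2 scale (SE 0.129, adjusted p = 0.0314). This call was lost without P5 replicate 1 or 4 or 4-week replicate 1 or 4 (adjusted p of 0.0575 to 0.102) and in intron reads (0.21, adjusted p = 0.281). Abcg2, an exporter of urate and many drugs that is known for dye efflux in HSCs, was at 41.2, 44.5, 40.7 and 32.4 CPM at P5 and at 62.9, 61.4, 64.1 and 61.9 CPM at 4 weeks. Abcg2 was lower at P5 by 0.66 on the log2 scale (SE 0.113, adjusted p = 0.00140). Its adjusted p stayed at or under 0.0113 in all 20 alternatives, intron reads included.

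None of the 3 tested adenosine receptors and adenosine deaminase anchors passed by edgeR at an adjusted p under 0.05, and none had an unadjusted p under 0.05. Dpp4 (CD26), which binds adenosine deaminase at the cell surface, was the most abundant of them per length, at 63.6 ± 7.74 CPM at P5 and 70.8 ± 13.5 CPM at 4 weeks (SD, n = 4 each), a log2 fold change of -0.15 (adjusted p = 0.493). Adora1 and Adora3 had 1 and 2 exon reads over the 8 libraries and were not tested.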

How the data were processed

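RNA was measured in 8 libraries of 100 sorted cells, 4 per age. The deposited tables give raw counts of reads over exons, introns and exon junctions for 48835 gene rows, per the file headers; per the submitters' processing notes the genome build was mm10. Which aligner, counting program and annotation were used is not given in the sources used here. Libraries were made with Nextera XT per the labels' protocols, which does not mark strand. Total exon reads of the 23457 rows with an mRNA model were used, and numbered copies were summed to 22050 genes. In P5 replicate 4, 24 names that had turned into dates were restored from the row order. The headers number the 4-week libraries otherwise than the titles do, and the titles were used.

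Tests used edgeR 4.0.16 in R 4.3.3 (TMM scaling, filterByExpr, quasi-likelihood, age alone, two-sided, all 8 libraries), with Benjamini-Hochberg adjustment over 12235 genes and a threshold of 0.05. The code was tested on simulated data. CPM are exon reads scaled to an effective library size of 1000000, and intron CPM use the sizes of the intron fit. Standard errors are approximate, taken from the F statistic. Tables used Python 3.11.15. Likeness to Gda used log2 CPM with a prior count of 2, for named genes with a mean of 2 or more. The members and lists were chosen with earlier results of these data known. Named were all 10 members and, of each wider list, at most 4 called genes by smallest p and the gene with the highest level per kb; the 5 genes most like Gda; and marker genes where a value was needed. Genes with few or no reads, Pnp2, and aldehyde oxidases and urate enzymes were named after their values were seen. Alternatives were a replicate block, each library left out, other filters, DESeq2 1.42.0 and its size factors, limma-voom 3.58.1, unique, intron, or exon plus intron reads, copies not summed, and Y-linked reads as a covariate or as a condition for use. Positions and promoter windows came from RefSeq tables on GRCm38.p6, and 9 of the 10 members had a window, all but Xdh.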

Additional observations from a re-analysis of the deposited data

Results flagged for a closer look

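Of 54 groups of 4 libraries examined (each named gene at each age), 1 held a library far from the others. Ada in 4-week replicate 3 was at 26.9 CPM, while the other 3 libraries of that age lay between 32.7 and 33.7 CPM. The gap to the nearest library was most of the group's whole range. Chance alone flags about 1 in 20 such groups.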

How the results depend on the processing

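Of the values of the 10 members under 20 alternatives, 192 moved by less than the spread between replicates and 7 by more. The latter were Gda at -3.47 with exon and intron reads together, and, in intron reads alone, Gda at -3.27, Xdh at 1.504, Pnp at -0.23, Ada at 0.072, Aprt at -0.32 and Ampd3 at 0.15. The cause was not tested. Nt5e was filtered out at 5 CPM in at least 4 libraries, as were Enpp1 and Mocos. With each library left out in turn, Gda ranged from -4.09 to -3.79, Xdh from 1.76 to 2.46 and Pnp from -0.73 to -0.59.

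Wider genes higher at P5 numbered 3, and 5 by DESeq2, 0 with Y-linked reads as a covariate, 0 when limited to libraries with Y-linked reads, and 1 to 4 with each library left out. Those lower numbered 7, and 4 to 7 with each library left out. All genes called numbered 2023, and 1236 with the Y-linked covariate, 1257 in the libraries with Y-linked reads (fewer samples) and 1502 to 1974 with each library left out. Among named wider genes, 282 values kept their side of the threshold, 47 lost the call, 4 gained it and 5 turned sign: Paics (-0.048) and Impdh2 (-0.035) in intron reads, Mocs1 (0.030) without 4-week replicate 3, within a range of -0.12 to 0.03, and Gphn in intron reads (0.26) and with exon and intron reads together (0.15). With the Y-linked covariate the calls of Ppat, Adssl1, Nme4, Entpd5, Mocos and Slc43a3 were lost, at adjusted p-values of 0.0538 to 0.210.

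With the replicate number as a block, 1300 genes were called, 2 wider genes higher and 4 lower, and Ppat, Entpd5, Mocos and Slc43a3 were lost. Libraries with the same number in their titles did not deviate together, with correlations of -0.24 to -0.03, so these numbers showed no pairing. Over all pairs of a P5 and a 4-week library, the highest correlation was 0.17. Whether libraries shared a batch was not tested. Reads without molecular identifiers from 100 cells limit all values, most of all genes with few reads such as Nt5e, Enpp1, Mocos and, at P5, Gda.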
